A study of Mus musculus with 12 samples.

Results

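Retinoic acid signalling in mouse spermatogonia was followed through 10 genes, chosen by symbol from the 53715 genes of the deposited count table. They are the retinoic acid receptor genes Rara, Rarb and Rarg, the retinoid X receptor genes Rxra and Rxrb, the synthesis genes Aldh1a1 and Aldh1a2, the clearance genes Cyp26a1 and Cyp26b1, and the binding protein gene Crabp1. RNA came from spermatogonia of C57BL6/129 mouse testes, with 1000 sorted cells per library and full-length Smart-seq2 cDNA. The 4 groups were Tet1KO and WT at 3 months and Tet1KO and WT at 11 months of age, with 3 libraries each. Tet1 encodes an enzyme that oxidises 5-methylcytosine, and the comparison asks what its loss changes at each age. The labels give neither the exons that the Tet1 allele lacks nor the animal behind each library, so genotypes are as labelled, and the p-values cover the spread of these libraries alone, part of which may be technical.

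Retinoic acid is made from retinol by way of retinaldehyde, which the ALDH1A enzymes oxidise, and it is removed by the CYP26 enzymes. It binds RAR proteins, which pair with RXR proteins on DNA and recruit corepressors or coactivators according to whether the ligand is present. In the testis it drives undifferentiated spermatogonia into differentiation and later into meiosis, with Kit and Stra8 among the genes that respond. In mouse testis Aldh1a1 is known as a Sertoli cell enzyme, Aldh1a2 as a germ cell enzyme, and CYP26 activity is known in peritubular myoid cells.

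Promoters of Rarb and Cyp26a1 are shown because both genes are known to be induced by retinoic acid and because these windows held the RAR and RXR type of repeat. The search used the letters AGGTCA or AGTTCA or GGTTCA or GGGTCA as direct repeats spaced by 1, 2 or 5 bases, on both strands, in RefSeq windows of 250 bases before to 50 bases after each start site (GRCm38.p6). All 10 genes had a window, 17 windows in all, and 2 windows held a match, each with a spacing of 5 bases. Over all 32817 windows, 0.0975% held a repeat spaced by 5, 0.268% one spaced by 2 and 0.222% one spaced by 1. In the Rarb window, chr14:16575427-16575726 on the minus strand, the repeat lies at -53 to -37 from the start site. In the Cyp26a1 window, chr19:37697558-37697857 on the plus strand, it lies at -32 to -16 and reads as the repeat on the other strand. Capitals mark the repeat, and a match describes letters only. Where no match was found, that window holds no direct repeat of these letters at these spacings, which says nothing of single copies.
Rarb: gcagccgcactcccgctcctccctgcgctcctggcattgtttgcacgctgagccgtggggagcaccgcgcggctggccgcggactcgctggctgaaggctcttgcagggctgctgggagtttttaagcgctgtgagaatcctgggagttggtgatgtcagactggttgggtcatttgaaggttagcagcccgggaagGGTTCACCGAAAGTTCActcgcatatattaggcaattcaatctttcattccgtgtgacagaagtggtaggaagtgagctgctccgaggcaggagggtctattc
Cyp26a1: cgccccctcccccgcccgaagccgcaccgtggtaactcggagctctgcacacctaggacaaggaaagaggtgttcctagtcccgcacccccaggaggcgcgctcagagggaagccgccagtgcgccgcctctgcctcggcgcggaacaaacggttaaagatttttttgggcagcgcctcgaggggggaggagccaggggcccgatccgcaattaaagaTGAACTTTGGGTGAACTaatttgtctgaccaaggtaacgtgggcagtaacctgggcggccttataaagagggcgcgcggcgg

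In mm10, as the deposited table gives it, the RAR genes lie with Rara at chr11:98927818-98974942 on the plus strand, Rarb at chr14:16430839-16819156 on the minus strand and Rarg at chr15:102234938-102257517 on the minus strand. The RXR genes lie with Rxra at chr2:27676440-27762957 on the plus strand and Rxrb at chr17:34031812-34038393 on the plus strand. The synthesis genes lie with Aldh1a1 at chr19:20492715-20643462 on the plus strand and Aldh1a2 at chr9:71215789-71296243 on the plus strand, and the clearance genes with Cyp26a1 at chr19:37697808-37701528 on the plus strand and Cyp26b1 at chr6:84571414-84593908 on the minus strand. The binding protein gene is Crabp1 at chr9:54764748-54773110 on the plus strand. Each value below counts fragments over all exons of the gene.

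Total counts ran from 8325159 to 18223645, and 3 counts, the most that a count of 0 allows, stood for 0.165 to 0.36 CPM of these totals, for counting error only. All other CPM values (counts divided by library depth) carry TMM scaling factors. Tet1KO replicate 2 and WT replicate 1 of 3 months stood apart on the first principal component (39.0% of the variance, scores of 121 and 131 against -55.9 to 38.9 in the others). Tet1 itself had 6, 11 and 18 counts in Tet1KO libraries and 15, 16 and 0 in WT libraries at 3 months, and 1, 17 and 5 in Tet1KO libraries and 1, 16 and 5 in WT libraries at 11 months. These counts overlapped, and a gene-level count cannot check the labels while the deleted exons are unknown. Germ cell markers were high in every library (summed CPM of 5 genes from 3032 to 4472), while markers of Sertoli, peritubular myoid, stromal and macrophage cells were present too. Markers of later germ cells were also present, with 10 of 10 genes passing the filter on low counts in each list. Spermatocyte markers summed to 2280 to 3728 CPM in Tet1KO and 1975 to 4250 CPM in WT at 3 months, and to 1427 to 3016 CPM in Tet1KO and 1780 to 2542 CPM in WT at 11 months. Spermatid markers summed to 699 to 1548 CPM in Tet1KO and 525 to 3141 CPM in WT at 3 months, and to 431 to 2606 CPM in Tet1KO and 317 to 2825 CPM in WT at 11 months. Both sums overlapped between genotypes at each age. By gene, 10 of 10 spermatid markers had a negative log2 fold change at 3 months (median -0.50) and 10 of 10 a positive one at 11 months (median 0.22). Of the spermatocyte markers 5 were positive and 5 negative at 3 months, and 8 and 2 at 11 months. In both lists 0 were called. In bulk samples, fewer cells of a type and less RNA per cell cannot be told apart.

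Crabp1, which encodes a cytosolic retinoic acid binding protein, was by far the most abundant of the 10 genes. On the TPM scale, which divides by gene length and so allows genes to be compared, it averaged 398 ± 46.3 in Tet1KO and 357 ± 81.0 in WT at 3 months, and 387 ± 111 in Tet1KO and 467 ± 44.5 in WT at 11 months (SD, n = 3 each). Its mean over the 12 libraries stood at percentile 99.3 of all genes. Aldh1a2, which makes retinoic acid, came second with 40.5 ± 5.61 TPM in Tet1KO and 28.9 ± 3.10 TPM in WT at 3 months, and 33.2 ± 7.67 TPM in Tet1KO and 34.2 ± 9.24 TPM in WT at 11 months. No Crabp1 library overlapped with an Aldh1a2 library, and no Aldh1a2 library with one of a lower gene.

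Below Aldh1a2 the order was resolved in part only. Rxrb, which encodes a receptor partner, had the next highest mean in every group, between 4.43 and 6.04 TPM. In WT at 3 months its libraries stood at 3.78, 5.75 and 4.11 TPM and those of Aldh1a1 at 6.47, 4.92 and 2.21 TPM, so these genes overlapped. Rxra, Aldh1a1, Cyp26a1 and Cyp26b1 had group means between 0.567 and 4.53 TPM, and their libraries overlapped when all groups were pooled. Within groups some did not overlap. At 11 months every Rxra library was above every Cyp26a1 and Cyp26b1 library of the same genotype. In WT at that age Rxra stood at 2.01 to 2.70 TPM, Cyp26b1 at 0.876 to 1.13 TPM and Cyp26a1 at 0.452 to 0.752 TPM. Rara averaged 0.634 to 1.26 TPM and Rarg 0.400 to 0.951 TPM, so Rara and Rarg stood below Rxrb and Rxra in each group mean. The summed RXR level was 3.14 to 7.64 times the summed RAR level in the 12 libraries. Rarb, the other RAR gene, was last in every group.

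**Figure D1:**
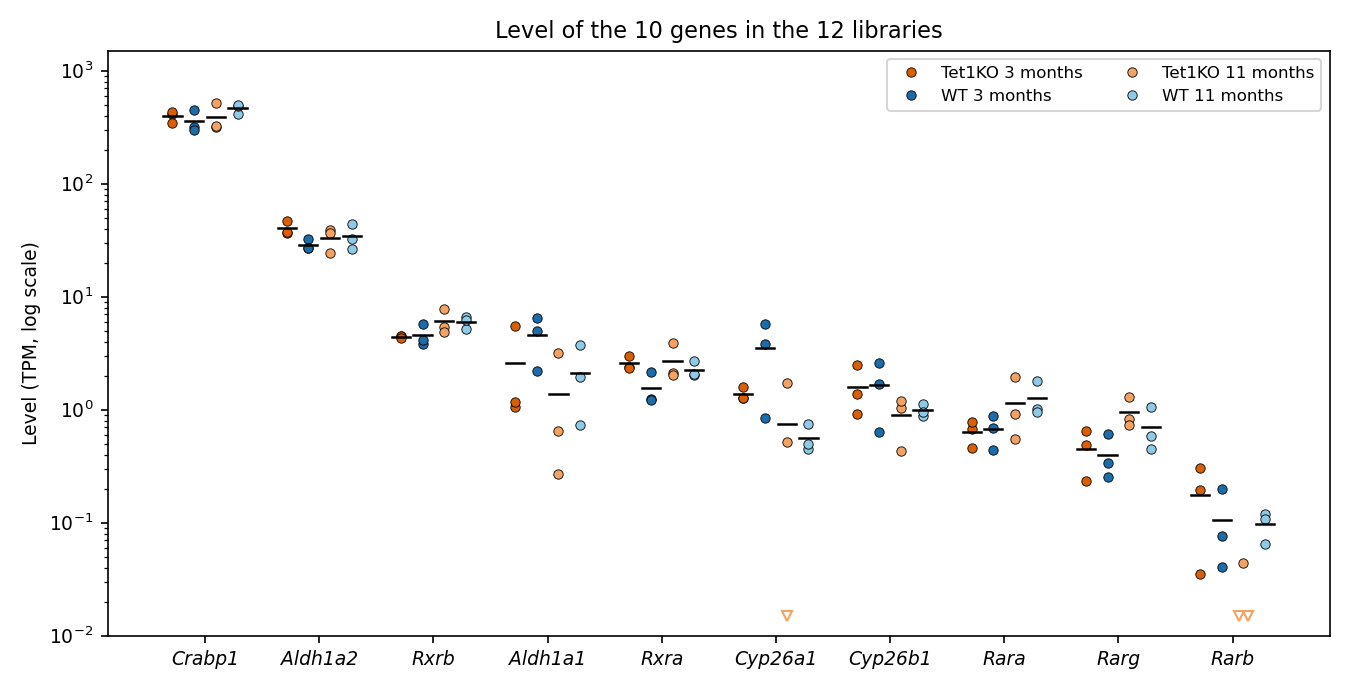
Level of each of the 10 genes on the TPM scale (vertical axis, log scale) in the 12 libraries. Points are libraries, lines are group means of 3, and open triangles at the bottom mark a value of 0 (Cyp26a1 in 1 and Rarb in 2 Tet1KO libraries of 11 months). Rarb's mean in that group, 0.0146 TPM, is not drawn. Crabp1 and Aldh1a2 stand apart from each other and from the rest.

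Of the 10 genes, 9 passed the filter on low counts, and Rarb did not. The edgeR quasi-likelihood test called 0 of the 19815 genes tested in each of the 6 comparisons at a Benjamini-Hochberg adjusted p under 0.05 (percent called 0), and so 0 of these 9. An unadjusted p under 0.05 was reached by 225 genes (1.14%) for Tet1KO against WT at 3 months, by 326 (1.65%) at 11 months, by 462 (2.33%) for 11 against 3 months in Tet1KO and by 1124 (5.67%) in WT. For the genotypes averaged over ages it was reached by 283 (1.43%) and for the interaction of genotype and age by 311 (1.57%). In the 4 comparisons of groups, in that order, DESeq2 called 2, 3, 5 and 0 genes and limma-voom 0 in each, with none of the 10 among them.

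Among the receptor genes that were tested, Rxra alone had no overlap between genotypes in CPM, and this at 3 months only. Rxra stood at 6.72, 8.68 and 6.63 CPM in Tet1KO libraries and at 3.93, 6.05 and 4.16 CPM in WT libraries at 3 months. The lowest Tet1KO library was above the highest WT library, as in 3.32% of the genes tested. Its log2 fold change was 0.64 ± 0.28 (SE), with a 95% interval of 0.02 to 1.26, and the unadjusted p of 0.0435 did not survive adjustment (edgeR quasi-likelihood test, adjusted p = 1.0). At 11 months Rxra stood at 6.03, 9.34 and 6.93 CPM in Tet1KO libraries and at 6.06, 6.83 and 6.47 CPM in WT libraries. The groups overlapped there, with a log2 fold change of 0.20 ± 0.28.

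The Rxra difference at 3 months leaned on single libraries, and ran from 0.50 to 0.87 with 1 library left out at a time. Without Tet1KO replicate 2 it was 0.50 (unadjusted p = 0.151 by edgeR), and without WT replicate 1 it was 0.52 (0.138). Without both of these libraries, which stand apart, it was 0.38, and without Tet1KO replicate 1 and WT replicate 2, whose library codes carry another prefix, it was 0.94. All of these values were positive. The summed Sertoli marker level, given with the marker lists, also did not overlap between genotypes at 3 months, lower in Tet1KO. Nor did the low Leydig sum, higher in Tet1KO. Over the 12 libraries, the Sertoli sum had a Pearson r of -0.57 with Rxra and 0.14 with Aldh1a2. The Leydig sum had 0.05 with Rxra and 0.54 with Aldh1a2. The part of these cells in the Rxra and Aldh1a2 values was not tested. Within the RXR family, Rxra made up 34.6%, 37.8% and 35.2% of the summed TPM in Tet1KO libraries and 24.8%, 25.4% and 21.7% in WT libraries at 3 months. That share did not overlap between groups. This alone fixes the exact two-sided permutation p at 0.1, the smallest that 3 against 3 libraries can give. The Rxrb share did not overlap at that age either, lower in Tet1KO, as shares within a family move against each other. At 11 months the share was 28.2%, 31.7% and 28.6% in Tet1KO libraries and 27.6%, 28.9% and 24.3% in WT libraries (exact permutation p = 0.3). Shares in the RAR family also did not overlap at 11 months. Rara made up 52.5%, 59.3% and 43.3% of the summed RAR TPM in Tet1KO libraries and 60.9%, 60.2% and 63.3% in WT libraries. Rarg made up 47.5%, 39.4% and 56.7% in Tet1KO libraries and 35.2%, 35.8% and 29.5% in WT libraries. The Rarb share did not overlap either, at 0%, 1.33% and 0% in Tet1KO libraries and 3.88%, 4.02% and 7.16% in WT libraries. These RAR shares depend on each other, rest on low counts and were not tested. How often shares in other gene families do not overlap was not computed.

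Rxrb, the other RXR gene, differed little by genotype. Its level was 8.58, 8.79 and 8.27 CPM in Tet1KO libraries and 8.09, 10.9 and 9.53 CPM in WT libraries at 3 months, and 10.4, 12.7 and 11.2 CPM in Tet1KO libraries and 10.5, 11.2 and 13.3 CPM in WT libraries at 11 months. The log2 fold changes, -0.15 ± 0.21 and -0.03 ± 0.20, have 95% intervals of -0.60 to 0.30 and -0.47 to 0.42. In Tet1KO, every 11-month library was above every 3-month library, a pattern seen in 3.10% of tested genes (log2 fold change 0.42 ± 0.21, unadjusted p = 0.0657 by edgeR, adjusted p = 1.0). In WT the difference by age was 0.29 ± 0.21, and the 2 ages overlapped.

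Rara and Rarg, which encode RAR proteins, were both low, with 9 to 62 and 5 to 36 counts per library. Rara stood at 1.03, 1.56 and 1.73 CPM in Tet1KO libraries and 1.74, 1.95 and 1.21 CPM in WT libraries at 3 months, and at 2.09, 3.72 and 1.504 CPM in Tet1KO libraries and 2.46, 3.62 and 2.41 CPM in WT libraries at 11 months. The genotypes overlapped at both ages (log2 fold changes -0.18 ± 0.47 and -0.22 ± 0.45). By age, the WT libraries of 11 months all lay above those of 3 months, as in 5.42% of tested genes (0.79 ± 0.46, unadjusted p = 0.114 by edgeR).

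Rarg stood at 0.517, 1.46 and 1.06 CPM in Tet1KO libraries and 0.832, 1.33 and 0.671 CPM in WT libraries at 3 months. In the older animals it stood at 1.85, 2.41 and 1.92 CPM in Tet1KO libraries and 1.39, 2.10 and 1.10 CPM in WT libraries. Its genotype differences were 0.11 ± 0.54 and 0.42 ± 0.52, both within the overlap of the libraries. The Tet1KO libraries of 11 months were all above those of 3 months, as in 3.1% of tested genes, with a log2 fold change of 1.0 ± 0.53 (unadjusted p = 0.0843, adjusted p = 1.0 by edgeR). Rxra also lay higher in every 11-month than in every 3-month WT library (0.45 ± 0.28), as in 5.42% of tested genes. The nearest libraries stood at 6.06 against 6.05 CPM, and in Tet1KO the ages overlapped. Rara and Rarg correlated across the 12 libraries (Pearson r = 0.76, a description over libraries that share groups and depth).

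**Figure D2:**
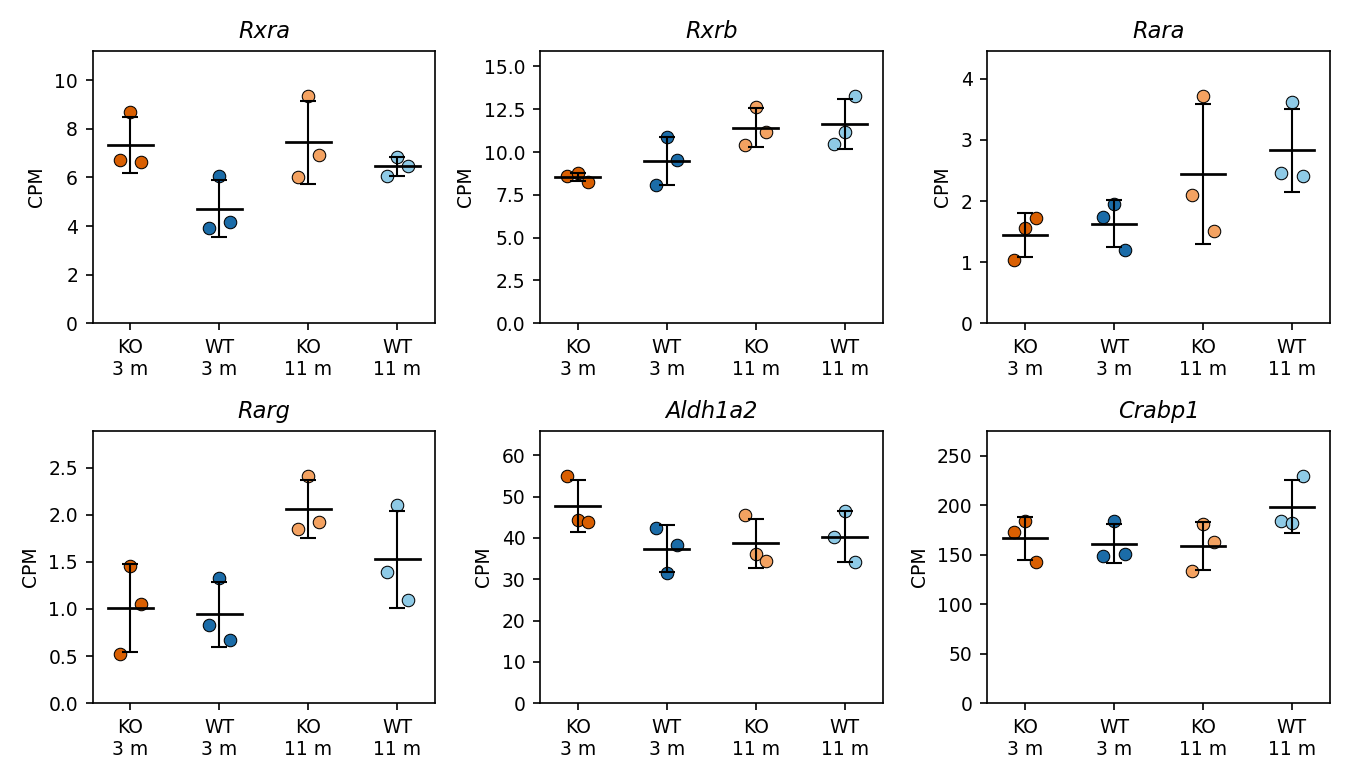
CPM (linear axes from 0) of 4 receptor genes, Aldh1a2 and Crabp1 by group (KO is Tet1KO, m is months). Points are libraries, the horizontal line is the mean and the bar the SD of 3. Rxra and Aldh1a2 at 3 months are higher in each Tet1KO library than in any WT library, and Crabp1 at 11 months is lower in each Tet1KO library.

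Rarb, itself a retinoic acid target, gave 8, 10 and 1 counts in Tet1KO libraries and 8, 2 and 1 in WT libraries at 3 months. In the older animals it gave 0, 1 and 0 counts in Tet1KO libraries and 3, 5 and 3 in WT libraries. These counts are low, and many are no more than the 3 that a count of 0 allows, so no fold is given. The 11-month WT counts were above the Tet1KO ones, but Rarb was not tested. The count is also uncertain, because 1793 of its 5265 exon bases overlap with Top2b on the opposite strand, a gene with 13246 counts in these libraries against 42 for Rarb, and counting was without strand. The other 9 genes share no exon base with another gene.

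Aldh1a2 carried most of the ALDH1A transcripts, 84.7 ± 7.50% of the family's summed TPM in Tet1KO and 73.9 ± 10.6% in WT at 3 months, and 86.2 ± 1.32% in Tet1KO and 83.1 ± 6.57% in WT at 11 months (SD, n = 3 each). At 3 months it stood at 55.0, 44.4 and 43.7 CPM in Tet1KO libraries and 42.5, 31.4 and 38.4 CPM in WT libraries. No library overlapped between the groups, as in 3.32% of tested genes, and the log2 fold change was 0.35 ± 0.18 (95% interval -0.04 to 0.74, unadjusted p = 0.0765 and adjusted p = 1.0 by edgeR). Without WT replicate 1 it was 0.45 (unadjusted p = 0.0478 by edgeR) and without WT replicate 2 it was 0.24. At 11 months it stood at 45.4, 36.2 and 34.4 CPM in Tet1KO libraries and 40.2, 46.4 and 34.1 CPM in WT libraries, and the groups overlapped (-0.06 ± 0.18).

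Aldh1a1, the other synthesis gene, was the most variable member by ratio among the genes with a count in every library, with a highest library 22.1 times the lowest, against 1.75 for Aldh1a2. It stood at 2.69, 14.6 and 2.98 CPM in Tet1KO libraries and 18.4, 12.4 and 6.84 CPM in WT libraries at 3 months. The 11-month libraries stood at 8.19, 1.41 and 0.835 CPM in Tet1KO libraries and 10.1, 4.43 and 2.08 CPM in WT libraries. Both comparisons overlapped, with log2 fold changes of -0.89 ± 0.92 and -0.66 ± 0.93. Leaving out Tet1KO replicate 2 of 3 months gave -2.15 (unadjusted p = 0.0487 by edgeR), and leaving out Tet1KO replicate 1 of 11 months gave -2.31 (0.0334). Leaving out WT replicate 1 of 11 months gave 0.11. With the replicate number as a block in the 11-month libraries it was -1.02 (unadjusted p = 0.0350, adjusted p = 1.0 by edgeR).

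Crabp1 was steady across libraries, its highest being 1.72 times its lowest. At 3 months it had 173, 184 and 142 CPM in Tet1KO libraries and 148, 184 and 151 CPM in WT libraries, overlapping, with a log2 fold change of 0.05 ± 0.17. The 11-month libraries had 133, 181 and 163 CPM in Tet1KO libraries and 184, 182 and 229 CPM in WT libraries. Every Tet1KO library was below every WT library, as for 2.54% of tested genes, with a log2 fold change of -0.32 ± 0.17 (95% interval -0.68 to 0.04, unadjusted p = 0.0782, adjusted p = 1 by edgeR). Without Tet1KO replicate 1 it was -0.21 and without WT replicate 3 it was also -0.21. At 11 months same-numbered libraries deviated together, and with the replicate number as a block in those 6 libraries it was -0.33 (unadjusted p = 0.0406, adjusted p = 1.0 by edgeR). Peritubular myoid markers, given with the marker lists, also summed lower in every Tet1KO library at that age. Over the 12 libraries, which share groups and depth, Crabp1 had a Pearson r of 0.17 with that sum. Its largest r in size with the marker lists was -0.61, with germ cell markers. The part of these cells in the Crabp1 value was not tested. Within the CRABP family, Crabp1 held 98.1% to 98.5% of the summed TPM in the 4 group means.

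The CYP26 enzymes clear retinoic acid, and their genes varied between libraries. Cyp26a1 stood at 1.45, 1.19 and 1.154 CPM in Tet1KO libraries and at 5.90, 3.49 and 0.939 CPM in WT libraries at 3 months. Its log2 fold change was -1.45 ± 0.97 (unadjusted p = 0.161 by edgeR), and the WT libraries spanned the Tet1KO ones. Without WT replicate 1 it was -0.82. At 11 months it was at 1.601, 0.402 and 0 CPM in Tet1KO libraries and 0.442, 0.408 and 0.767 CPM in WT libraries, also overlapping (0.37 ± 1.01).

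By age, Cyp26a1 was lower in CPM in every WT library of 11 months than of 3 months, as for 6.12% of tested genes. Its counts were low, 7, 7 and 7 in WT libraries at 11 months and 78, 34 and 7 at 3 months. It missed the filter in the 11-month libraries alone. Cyp26a1 was thus tested mainly through the 3-month libraries, where it was higher, and its difference by age is a description. Its log2 fold change of -2.69 ± 1.03 (95% interval -4.94 to -0.44) reached an unadjusted p of 0.0230 and an adjusted p of 0.774 by edgeR. Without WT replicate 1 of 3 months it was -2.05 (unadjusted p = 0.0930 by edgeR). In Tet1KO the same comparison gave -0.86 ± 0.99 with overlap, and it leaned on single libraries. Without Tet1KO replicate 1 of 11 months it was -2.65 (unadjusted p = 0.0381 by edgeR), and without Tet1KO replicate 3 of 11 months, where no count was found, it was -0.29 (0.720).

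Cyp26b1 had 3.82, 7.01 and 2.50 CPM in Tet1KO libraries and 8.01, 4.62 and 2.15 CPM in WT libraries at 3 months. It had 2.89, 2.81 and 1.42 CPM in Tet1KO libraries and 2.59, 2.80 and 2.96 CPM in WT libraries at 11 months. Both pairs overlapped (-0.15 ± 0.52 and -0.22 ± 0.52).

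**Figure D3:**
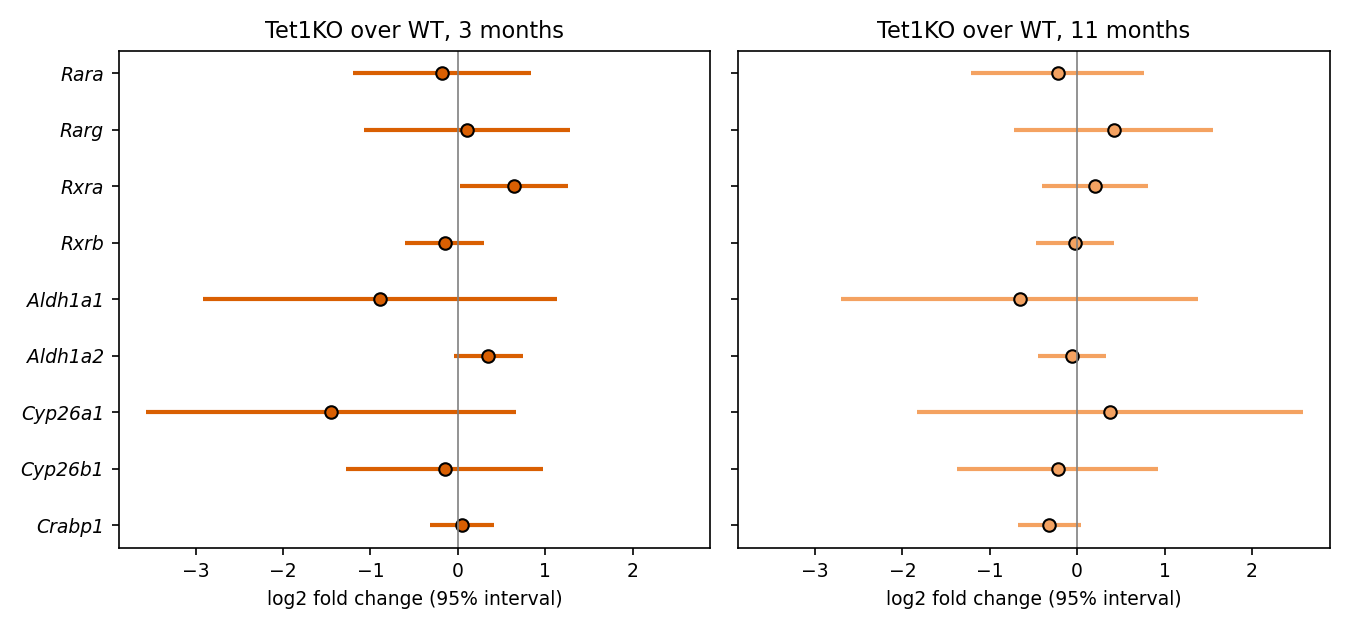
Log2 fold change of Tet1KO over WT (horizontal axis) at 3 and 11 months for the 9 genes that passed the filter. Points are edgeR estimates and bars 95% intervals. At 3 months Rxra is the 1 gene whose interval, 0.02 to 1.26, leaves out 0, before adjustment over all genes, and the widest intervals are those of Aldh1a1 and Cyp26a1.

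Aldh1a1, Cyp26a1 and Cyp26b1 were high in some of the libraries in which markers of somatic cells were high. Over the 12 libraries, Aldh1a1 correlated with Cyp26a1 (Pearson r = 0.73) and with Cyp26b1 (0.71), and Cyp26a1 with Cyp26b1 (0.79), as a description of libraries that share groups and depth. At 3 months the summed level of 20 Sertoli markers was 57.3, 142 and 58.5 CPM in Tet1KO libraries and 589, 154 and 249 CPM in WT libraries, without overlap. At 11 months it was 67.0, 69.2 and 44.0 CPM in Tet1KO libraries and 178, 246 and 28.1 CPM in WT libraries. Of these markers 16 passed the filter. The log2 fold change was negative for 16 of 16 at 3 months (median -1.65) and for 14 of 16 at 11 months (median -1.12). An unadjusted p under 0.05 by edgeR was reached by 5 at 3 months, 1 at 11 months and 9 averaged over ages. All of these were lower in Tet1KO, beside 1.14%, 1.65% and 1.43% of all tested genes in either direction, and 0 were called.

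Peritubular myoid markers (9 of 9 passed) summed to 288, 410 and 83.8 CPM in Tet1KO libraries and 391, 109 and 141 CPM in WT libraries at 3 months. At 11 months they summed to 35.7, 65.4 and 28.7 CPM in Tet1KO libraries and 262, 154 and 74.1 CPM in WT libraries, without overlap. Of these 9 markers, 7 had a positive and 2 a negative log2 fold change at 3 months (median 0.14), and 1 a positive and 8 a negative one at 11 months (median -1.98). At 11 months 7 reached an unadjusted p under 0.05, all of them lower in Tet1KO, and 0 were called by edgeR. DESeq2 called 1 of them at that age, the tropomyosin gene Tpm2 (log2 fold change -4.04, adjusted p = 0.0181 by DESeq2). Stromal and endothelial markers (10 of 10 passed) summed to 184, 485 and 498 CPM in Tet1KO libraries and 582, 567 and 321 CPM in WT libraries at 3 months. At 11 months their sums were 453, 91.0 and 43.8 CPM in Tet1KO libraries and 660, 14.8 and 107 CPM in WT libraries. The defining markers Sox9, Wt1, Rhox8, Acta2, Myh11, Myl9, Pecam1, Col1a1 and Dcn had counts in all 12 libraries, and Cldn11 was at 0 in 1. Leydig markers were low (1 of 7 passed), with Cyp17a1 at 0 in 11 libraries and Insl3 at 0 to 192 counts. They summed to 6.20 to 13.9 CPM in Tet1KO and 4.16 to 5.29 CPM in WT at 3 months, without overlap, and to 2.31 to 5.85 CPM in Tet1KO and 4.93 to 7.82 CPM in WT at 11 months. Macrophage markers (12 of 12 passed) summed to 76.0 to 821 CPM and overlapped between genotypes at both ages. By gene, 1 had a positive and 11 a negative log2 fold change at 3 months (median -0.32). At 11 months 12 of 12 were positive (median 0.73), and 0 were called at either age. The part of these cells in the Aldh1a1 and Cyp26 values was not tested. Over the 12 libraries, which share groups and depth, Aldh1a1 had a Pearson r of 0.75 with Sertoli and 0.67 with spermatid markers. It had 0.68 with stromal and endothelial, 0.65 with Leydig, 0.64 with peritubular myoid and -0.14 with macrophage markers. For Cyp26b1 the highest of these was 0.72, with peritubular myoid markers. For Cyp26a1 it was 0.66, with stromal and endothelial markers. With the spermatocyte markers Rara had -0.68, Rxrb -0.71, Rxra -0.57, Crabp1 -0.51 and Rarg -0.47. With the germ cell markers the same genes had -0.65, -0.61, -0.51, -0.61 and -0.53, in that order. The ALDH1A and CYP26 genes among the members ran from 0.19 to 0.47 with spermatocyte and from -0.06 to 0.44 with germ cell markers. These are descriptions, and the part of those cells in the values was not tested either.

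**Figure D4:**
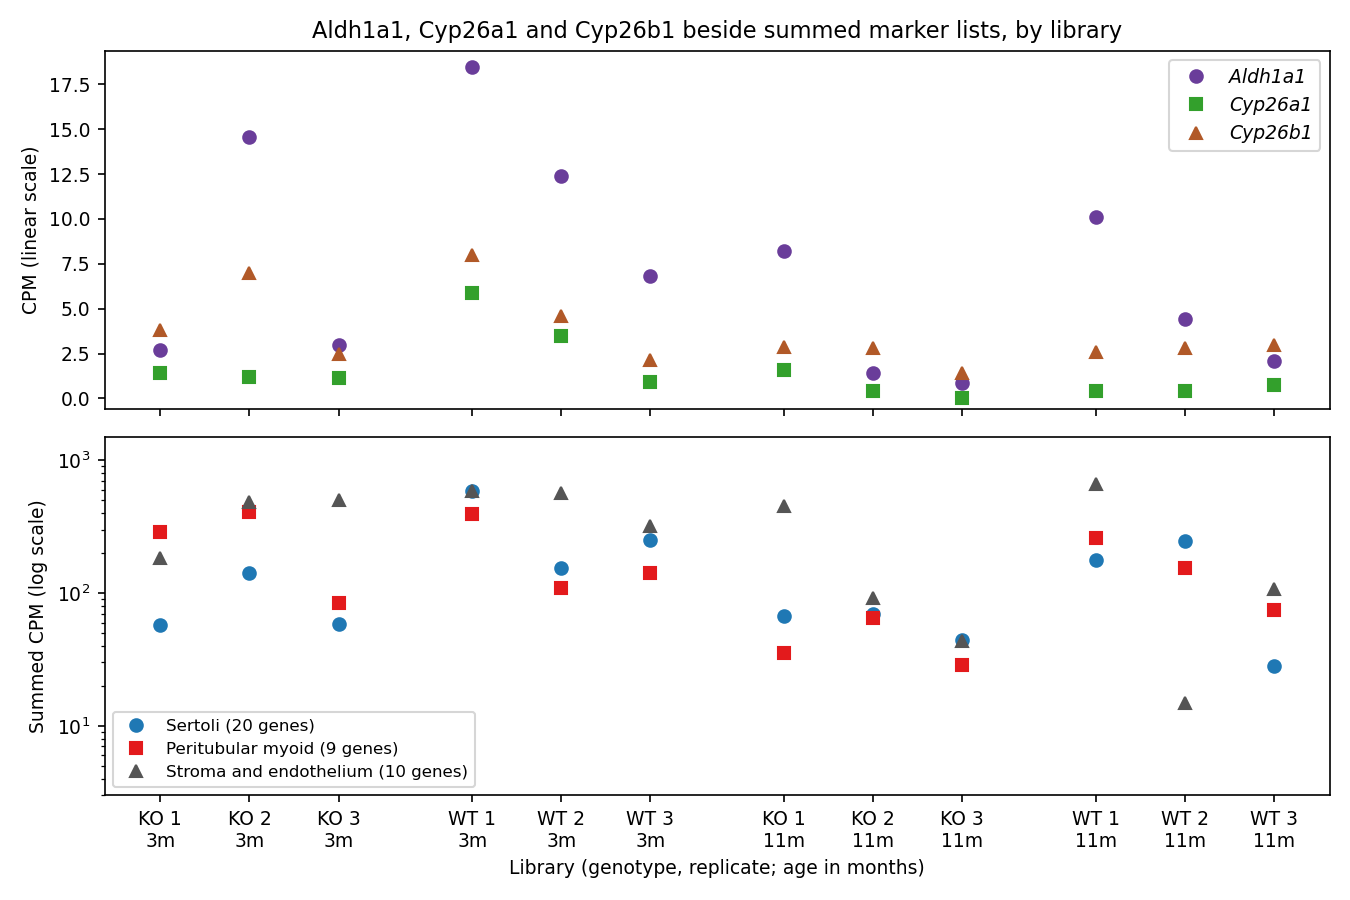
Aldh1a1, Cyp26a1 and Cyp26b1 in CPM (upper panel, linear scale) and the summed CPM of Sertoli, peritubular myoid and stromal markers (lower panel, log scale) in each library (KO is Tet1KO, m is months). Each symbol is 1 library. WT replicate 1 of 3 months has the highest Aldh1a1, at 18.4 CPM, and the highest Sertoli sum, at 589 CPM.

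Across the 9 tested genes, 4 had a positive and 5 a negative log2 fold change for Tet1KO against WT at 3 months (median -0.15), beside 46.8% positive and a median of -0.02 over all tested genes. At 11 months the counts were 3 and 6 (median -0.06), beside 53.8% positive and a median of 0.02 overall. For 11 against 3 months they were 4 and 5 in Tet1KO (median -0.07, beside 48.0% positive) and 6 and 3 in WT (median 0.29, beside 43.6% positive). For the genotypes averaged over ages they were 3 and 6, beside 51.2% positive, and for the interaction of genotype and age 4 and 5, beside 55.6% positive. None of the 9 lay above WT in every Tet1KO library at 11 months, as 2.82% of tested genes did, or below the 3-month libraries in every 11-month Tet1KO library, as 3.09% did.

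Genes whose log2 CPM was most like each member over the 12 libraries were named by the 2 highest Pearson r. They were Sars2 (0.92) and Csnk1g2 (0.91) for Rara, Palm (0.90) and Ing4 (0.87) for Rarg, Cntn6 (0.92) and Supt6 (0.92) for Rxra, and Pygo1 (0.92) and Cdc34 (0.91) for Rxrb. For the enzymes they were Mmd2 (0.94) and Mfap5 (0.92) for Aldh1a1, Sh3rf3 (0.89) and Ppp1r12b (0.84) for Aldh1a2, Aspa (0.84) and Sipa1l3 (0.83) for Cyp26a1, and 1700042G15Rik (0.96) and Sphkap (0.95) for Cyp26b1. Rnd2 (0.90) and Zfp354c (0.87) were most like Crabp1. These are descriptions over 12 libraries that share groups and depth. Ing4 shares 1855 exon bases with Gm44597, Ppp1r12b 710 with Gm28892, Supt6 242 with Sdf2 and Rnd2 226 with Vat1, so their counts are uncertain.

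Of 19 other genes of the retinoid pathway, 14 were tested, and at 3 months 6 had a positive and 8 a negative log2 fold change (median -0.06), with 0 called (percent called 0). At 11 months the counts were 7 and 7 (median -0.05). The most abundant over the 12 libraries were Rbp4, the plasma retinol carrier gene, with a mean of 186 TPM, the retinol dehydrogenase gene Rdh14 with 41.9 TPM and Dgat1, whose enzyme can esterify retinol, with 23.1 TPM. The smallest p at 3 months were those of Fabp5, which encodes a fatty acid binding protein that also binds retinoic acid (-0.68 ± 0.41), and Dhrs4 (0.61 ± 0.49, and 0.18 without Tet1KO replicate 2). At 11 months Rdh14 gave -0.30 ± 0.18.

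Of 11 genes known to respond to retinoic acid, 9 were tested, with 7 positive and 2 negative at 3 months (median 0.14) and 3 positive and 6 negative at 11 months (median -0.21), and 0 called. Stra8, which is required for meiotic entry, averaged 672 ± 402 CPM in Tet1KO and 734 ± 152 CPM in WT at 3 months, and 622 ± 463 CPM in Tet1KO and 771 ± 173 CPM in WT at 11 months (SD, n = 3 each). Kit, the receptor gene of differentiating spermatogonia, averaged 97.4 ± 17.7 CPM in Tet1KO and 84.9 ± 20.9 CPM in WT at 3 months, and 87.2 ± 22.3 CPM in Tet1KO and 86.4 ± 12.1 CPM in WT at 11 months. Sohlh1 and Sohlh2, transcription factor genes of differentiating spermatogonia, had means of 45.4 and 27.9 TPM over the 12 libraries. Sall4 gave 0.27 ± 0.29 at 3 months and -0.21 ± 0.29 at 11 months. It shares 526 exon bases with Gm14261, which had 35 counts over the 12 libraries against 10360 for Sall4.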

How the data were processed

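RNA-seq libraries of sorted mouse spermatogonia were used as 1 table of raw counts that the authors deposited, whole numbers per gene and library. Per the file headers, featureCounts 1.6.2 counted fragments on GENCODE vM17 without strand, with a mapping quality of at least 30, fragments over several genes counted for each, and multi-mapping reads kept. HISAT2, SAMtools and mm10 are named per the submitters' processing notes, and the sources used here give no version of either tool. The deposited table also gives each gene's length in bases, which the authors' counting wrote beside the counts. Symbols came from GENCODE vM21 for 53620 of 53715 genes. 0 sample columns were left unused.

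Libraries held 8325159 to 18223645 counts. Pairs within a group differed by at least 10.9 in chi-square per degree of freedom, so each counted as 1 replicate. TPM were computed from counts and lengths, and CPM with TMM. Genes kept by filterByExpr (19815) were tested with edgeR 4.0.16 (robust quasi-likelihood F test, two-sided, R 4.3.3), all 12 libraries in 1 model with a mean per group, Benjamini-Hochberg adjusted over all genes at 0.05. The procedure was tested on simulated data. Correlations used log2 CPM with a prior count of 2. DESeq2 1.42.0, limma 3.58.1 (voom), other scalings and filters, fits of the compared groups only, a replicate block and libraries left out were alternatives.

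The members and lists were chosen with earlier results of these data known. The rule for named genes takes all 10 members, Tet1, defining markers, genes overlapping a member, the 2 genes most like each tested member, and, per pathway list, the 3 most abundant genes, the 2 with the smallest p at each age and every gene past the threshold. Of the genes so named, 2 are not reported here.

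Same-numbered libraries deviated together at 11 months (r of 0.17 to 0.37, 3 of 3 pairs above 0.1), from the data and not from the labels. They did not at 3 months (-0.59 to 0.30, 1 of 3), nor by age in Tet1KO (0.08 to 0.47, 1 of 3) or WT (0.06 to 0.17, 2 of 3). A fit of the 11-month libraries with the number as a block was added after seeing the data. There, 627 genes reached an unadjusted p under 0.05, against 326 without the block, and 0 were called by edgeR.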

Additional observations from a re-analysis of the deposited data

How the results depend on the processing

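Counts of the 10 genes called stayed at 0 in all 6 comparisons under every alternative run. DESeq2 called 2 genes at 3 months and 3 at 11 months for Tet1KO against WT, 2 averaged over ages and 5 for 11 against 3 months in Tet1KO, where edgeR called 0. With the replicate block over all groups no member was called, and Cyp26a1 at 11 months turned to -0.21 (limma-voom -0.43, replicate block in the 11-month libraries not estimated because it missed the filter). Other log2 fold changes turned direction as follows. Rxra by age in Tet1KO gave -0.0041 with RLE factors, -0.015 with DESeq2, -0.0013 with only the compared groups and -0.045 without Tet1KO replicate 1 and WT replicate 2 of 3 months, without which Rara at 3 months gave 0.18. Rxrb at 11 months gave 0.010 with library totals. At 3 months limma-voom gave Rarg -0.24 and Crabp1 -0.088. Without the 2 libraries that stand apart, Rarg gave -0.36 and Crabp1 -0.089 at 3 months, and by age in Tet1KO Aldh1a1 gave 0.32 and Crabp1 0.011. The causes were not tested.

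Leaving out 1 library at a time gave ranges across 0 at 3 months for Rara (-0.33 to 0.016), Rarg (-0.26 to 0.44), Cyp26b1 (-0.65 to 0.39) and Crabp1 (-0.031 to 0.16). At 11 months it did so for Rara (-0.65 to 0.022), Rxrb (-0.11 to 0.064), Aldh1a1 (-2.31 to 0.11), Aldh1a2 (-0.19 to 0.058), Cyp26a1 (-1.41 to 0.94), Cyp26b1 (-0.40 to 0.035) and Sall4 (-0.59 to 0.089). By age it did so in Tet1KO for Rxra (-0.18 to 0.15), Aldh1a1 (-2.60 to 0.32) and Crabp1 (-0.17 to 0.045), and in WT for Aldh1a2 (-0.0077 to 0.24). Where an arm was left with 2 libraries, the spread was pooled over groups. The number of genes at an unadjusted p under 0.05 ran from 159 to 512 at 3 months and from 312 to 714 at 11 months, against 225 and 326, and without the filter it was 398 and 635, with limma-voom 552 at 3 months and with DESeq2 524 at 11 months. By age in Tet1KO it was 462, against 865 without the filter, 759 with DESeq2 and 302 without the libraries that stand apart, and in WT 1124, against 1689 without the filter and 451 without those libraries. Without the filter it was 698 for genotypes averaged over ages and 771 for the interaction, against 283 and 311.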

Other observations

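Coregulators that RAR and RXR proteins recruit were well expressed, and all 13 of the listed genes were tested. At 3 months 8 had a positive and 5 a negative log2 fold change for Tet1KO against WT, and at 11 months 6 and 7, with 0 called by edgeR and 0 at an unadjusted p under 0.05. The most abundant over the 12 libraries were Gps2, a subunit of the NCoR corepressor complex, with a mean of 50.2 TPM, the Mediator subunit gene Med1 with 28.4 TPM and the histone deacetylase gene Hdac3 with 28.1 TPM. Gps2 stood at 50.6, 45.6 and 45.1 CPM in Tet1KO libraries and 39.8, 34.4 and 23.5 CPM in WT libraries at 3 months, without overlap, as in 3.32% of tested genes (0.53 ± 0.33, not called; 0.37 without WT replicate 3). Hdac3 gave 0.33 ± 0.21 at that age (0.496 without WT replicate 2). At 11 months the smallest p were those of Tbl1xr1, another corepressor subunit gene (0.31 ± 0.18, and 0.15 without Tet1KO replicate 2), and Med1 (-0.26 ± 0.17).

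Of 11 other nuclear receptor genes whose proteins pair with RXR, 8 were tested, with 4 positive and 4 negative at each age and 0 called. Pparg, best known from fat cells, had the highest mean over the 12 libraries, 10.9 TPM, followed by the orphan receptor gene Nr4a1 with 6.94 TPM and the liver X receptor gene Nr1h2 with 5.88 TPM. Nr4a2 stood at 0.246, 1.41 and 1.504 CPM in Tet1KO libraries and 5.36, 1.69 and 2.74 CPM in WT libraries at 11 months, lower without overlap, as in 2.54% of tested genes. Its log2 fold change was -1.65 ± 0.68 (unadjusted p = 0.0331, adjusted p = 1 by edgeR), and leaving out 1 library at a time gave -2.04 to -1.09. The value nearest 0 came without WT replicate 1 (unadjusted p = 0.156 by edgeR). Ppara gave -0.81 ± 0.65 at 11 months, and leaving out 1 library gave -1.24 (without Tet1KO replicate 3) to -0.22 (without WT replicate 1). Ppard gave 0.50 ± 0.48 at 3 months, with 0.26 without WT replicate 3 and 1.08 without WT replicate 2. Nr1h2 gave 0.34 ± 0.38, with 0.086 without Tet1KO replicate 1 and 0.53 without WT replicate 2.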
